A study of Mus musculus with 12 samples.

Results

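The Dlk1-Dio3 imprinted microRNA (miRNA) locus was followed in mouse embryonic stem cells (ESCs) through its 5 best known transcripts, Dlk1, Meg3, Rtl1, Rian and Mirg. These genes were taken by name, by matching the gene identifiers of the count table to GENCODE symbols, and all 5 were found among the 51559 rows of the table. The 3 long noncoding RNAs, Meg3, Rian and Mirg, had enough reads to be tested with 14033 genes in all. The 2 protein-coding genes, Dlk1 and Rtl1, did not, and are given as counts. Of these 3 noncoding RNAs Mirg changed most in total RNA: its steady-state RNA rose from 29.2 to 118 CPM (reads per 1000000 in the library) in cells without Dgcr8 while its newly made RNA fell from 127 to 91.7 CPM.

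The study compared 2 genotypes, wild-type ESCs of the established V6.5 line and Dgcr8 KO ESCs, a previously generated line that lacks the miRNA processing factor DGCR8. The cells of both genotypes were grown with fetal bovine serum, LIF and the 2 kinase inhibitors known as 2i, and both received 4-thiouridine (4sU) at 500 uM for 30 min. RNA labelled during that pulse was captured for the 4sU libraries (nascent RNA), and RNA depleted of ribosomal RNA gave the total libraries (steady-state RNA). Each genotype had 3 replicates of each library type, 12 libraries in all. Each genotype is 1 cell line, so that an effect of losing Dgcr8 and a difference between the lines cannot be told apart. Nothing in the labels says that replicates were separate cultures, and p-values then measure only the spread between these samples. Reads from the maternal and the paternal chromosome were counted together.

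Imprinted genes are expressed from only 1 parental chromosome. At this locus the paternal chromosome is known to express the protein-coding genes Dlk1, Rtl1 and Dio3, and the maternal chromosome the noncoding RNAs Meg3, Rian and Mirg, which run in the same direction and are often described as parts of a single long transcription unit. Between and within these noncoding RNAs lie one of the largest miRNA clusters known in mammals and a cluster of C/D box small nucleolar RNAs (snoRNAs). DGCR8 works with the nuclease DROSHA to cut miRNA hairpins out of such primary transcripts, whereas most snoRNAs are known to be released by trimming of excised introns. Expression of the maternal noncoding RNAs is known to vary among pluripotent cell lines and has been used as a mark of their developmental quality.

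The members lie on mm10 chromosome 12. Dlk1 (ENSMUSG00000040856.17, 109452849 to 109463336, plus strand) comes first, followed by Meg3 (ENSMUSG00000021268.17, 109541005 to 109571726, plus strand). Rtl1 (ENSMUSG00000085925.3, 109589193 to 109600330) is read from the minus strand. Rian (ENSMUSG00000097451.10, 109603940 to 109661716) and Mirg (ENSMUSG00000097391.8, 109729764 to 109749460) are again on the plus strand. From the start of Begain to the end of Dio3 the table holds 122 rows, of which 69 are miRNA hairpins and 23 are snoRNAs. All but 10 of the miRNA rows are on the plus strand, the strand of the noncoding RNAs.

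The miRNA hairpins on the plus strand opposite Rtl1 are a distinctive part of the locus, since their mature miRNAs are antisense to the Rtl1 mRNA and are known to direct its cleavage. RefSeq (GRCm38.p6, the same build) holds 58 hairpins and 114 mature miRNAs in the interval, and 58 of the 69 miRNA rows matched a RefSeq hairpin by symbol with the same start and end. As their position on the opposite strand implies, all 11 mature miRNAs opposite Rtl1 were complementary over their whole length to its single GENCODE M21 transcript. Of the other mature miRNAs of the locus 0 were, so the 11 opposite Rtl1 are shown. They are written 5′ to 3′ with the seed, bases 2 to 8, in capitals.
mmu-miR-431-5p: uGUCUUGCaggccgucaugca
mmu-miR-431-3p: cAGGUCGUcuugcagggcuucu
mmu-miR-433-5p: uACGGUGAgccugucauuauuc
mmu-miR-433-3p: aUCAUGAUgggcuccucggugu
mmu-miR-127-5p: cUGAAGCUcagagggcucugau
mmu-miR-127-3p: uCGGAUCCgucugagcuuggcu
mmu-miR-434-5p: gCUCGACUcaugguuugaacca
mmu-miR-434-3p: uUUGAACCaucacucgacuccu
mmu-miR-432: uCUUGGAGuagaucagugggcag
mmu-miR-136-5p: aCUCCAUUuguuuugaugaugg
mmu-miR-136-3p: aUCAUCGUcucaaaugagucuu

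None of these 11 shared a seed with another mature miRNA of the locus. Over the whole locus, with the same mature sequence counted once for each hairpin, there were 104 different seeds among the 114 mature miRNAs, and 10 seeds were shared, each by 2 of them, such as AUGUGGG in miR-299a-3p and miR-299b-3p. Reads in these libraries are not mature miRNAs but fragments of longer RNA that overlap a hairpin. To show what such a row covers, 2 hairpins follow with the mature arms in capitals: Mir433 (chr12:109591715-109591838, plus strand), whose reads rose in both library types, and Mir134 (chr12:109734139-109734209, plus strand), which lies wholly inside exons of Mirg.
Mir433: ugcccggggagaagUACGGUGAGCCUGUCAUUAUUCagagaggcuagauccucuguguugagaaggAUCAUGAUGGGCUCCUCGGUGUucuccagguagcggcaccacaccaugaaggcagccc
Mir134: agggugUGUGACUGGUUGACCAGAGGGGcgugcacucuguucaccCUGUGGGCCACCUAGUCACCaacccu

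A read that overlapped 2 rows on 1 strand was counted for neither. A read needed to overlap a hairpin by only 1 base, so that it could extend into the flanks. The 8 miRNA rows that lie wholly inside exons of another row, Mir134 among them, therefore all had 0 counts, and the reads there were also lost to their host. In Mirg 4.99% of the exon bases were shared with a miRNA row, in Meg3 1.73% and in Rian 3.32% with small RNA rows of any kind. Levels of the members leave out those bases in both genotypes alike.

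Total counts ranged from 4593914 to 9295245 per library. Dgcr8 itself was at 101, 111 and 92.5 CPM in the wild-type total libraries and at 33.6, 34.1 and 32.0 CPM in the Dgcr8 KO ones. It fell by 1.60 on the log2 scale (limma adjusted p = 6.63e-17, SE 0.0848). CPM here are counts scaled to library size and TMM factor. All 8 markers of pluripotent cells were present, with a summed level of 4837 to 7162 CPM in every library. The 13 fibroblast markers summed to 17.4 to 20.8 CPM in wild-type and 10.5 to 11.1 CPM in Dgcr8 KO total libraries, and Postn and Dcn had 0 counts in every library. The 8 primitive endoderm markers summed to 103.3 to 116.5 CPM in wild-type and 41.8 to 49.7 CPM in Dgcr8 KO total libraries. Most of that was Lama1 (means of 102.6 and 37.33 CPM), while Gata4 had means of 4.917 and 6.481 CPM. The 6 neural markers summed to 155 to 157 and 80.5 to 89.3 CPM in the same libraries. Nes (93.84 and 56.34 CPM) and Tubb3 (47.49 and 10.92 CPM) made up most of that sum. Sox1 (12.21 and 14.46 CPM) and Pax6 (0.5758 and 1.006 CPM) had higher means in Dgcr8 KO. The 6 trophoblast markers summed to 55.4 to 66.7 and 38.2 to 40.3 CPM in total libraries, mostly from Tfap2c (means of 56.05 and 35.01 CPM). In 4sU libraries the trophoblast sums (92.32 to 103.7 and 85.85 to 107.2 CPM) and fibroblast sums (11.58 to 18.2 and 12.37 to 15.99 CPM) overlapped between genotypes. The endoderm sums (68.84 to 71.95 and 36.05 to 38.26 CPM) and neural sums (130.5 to 146.2 and 99.94 to 107.6 CPM) did not. Afp had 0 counts in all groups but wild-type total RNA, and Sox7 and Elf5 had 0 counts in Dgcr8 KO total RNA. In bulk samples, fewer cells of a type and less RNA per cell cannot be told apart. The part of these marker differences in the results on the locus was not tested.

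Over the 14033 genes tested, the median log2 change between genotypes was -0.09 in total RNA and -0.02 in nascent RNA. A gene was called where it passed the adjusted p of 0.05 and also moved by more than 1 on the log2 scale in either direction. Meg3, Rian and Mirg each had over 3 CPM in every library, so that none of them passed the filter through a single group. In total RNA all 3 rose at the adjusted p, which 27.2% of all genes tested did, and their Dgcr8 KO libraries did not overlap the wild-type ones, which held for 29.2%. Mirg alone was past the fold limit as well, as were 9.33% of all genes in that direction. In nascent RNA, Meg3 and Rian rose (28.3% of all genes did at the adjusted p, and 29.6% had higher Dgcr8 KO libraries with no overlap), Mirg fell (28% and 29.4%), and none of them passed the fold limit. In total RNA 36.7% of all genes fell at the adjusted p and 39.6% were lower with no overlap, a direction that none of these 3 RNAs took.

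**Figure D1:**
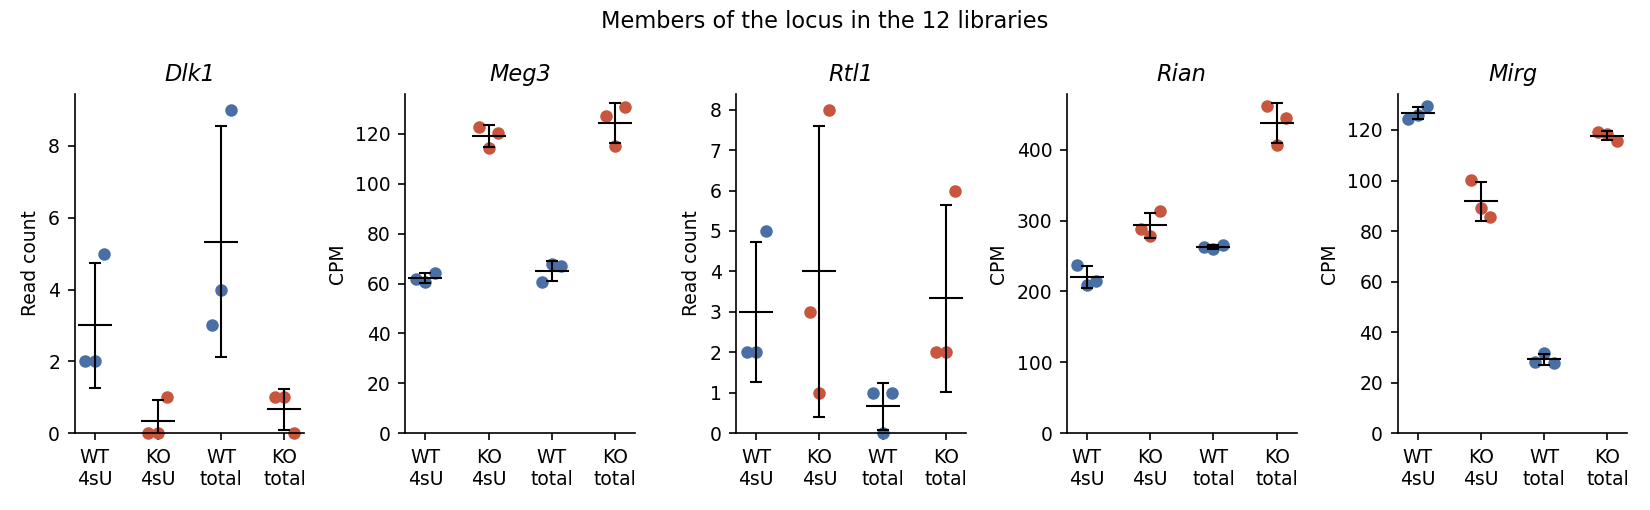
Level of each member in the 12 libraries, as CPM for Meg3, Rian and Mirg and as read counts for Dlk1 and Rtl1. Points are libraries and bars give the mean and SD over 3. Mirg falls between genotypes in 4sU RNA and rises in total RNA, Meg3 rises by a like amount in both, and Dlk1 and Rtl1 have at most 9 reads in any library.

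Mirg, the noncoding RNA at the far end of the cluster whose exons and introns carry many of its miRNA hairpins, was at 28.3, 31.7 and 27.7 CPM in wild-type total libraries and at 119, 118 and 116 CPM in Dgcr8 KO total libraries. The groups lay far apart, and each varied by only a few CPM. The log2 change was 2.01 (SE 0.0784, limma adjusted p = 3.01e-20), and the quasi-likelihood test of edgeR gave 2.01 (adjusted p = 1.44e-22). Of all genes tested, 407 rose more in total RNA than Mirg did.

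In nascent RNA the order of the genotypes was turned around. Mirg was at 124, 126 and 129 CPM in the wild-type 4sU libraries and at 100, 89.3 and 85.7 CPM in the Dgcr8 KO ones. Every Dgcr8 KO library lay below every wild-type library. The log2 change was -0.47 (SE 0.0679, limma adjusted p = 6.23e-07), short of the fold limit.

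The ratio of total to 4sU signal serves as the measure of relative stability, and the interaction of library type and genotype tests its change. Each library was scaled to its own size, so the ratio is relative to other genes and gives no absolute amounts. For Mirg the log2 ratio was -2.14, -1.99 and -2.23 in wild-type and 0.25, 0.41 and 0.43 in Dgcr8 KO. The change was 2.48 (SE 0.104, 95% interval 2.27 to 2.69, limma adjusted p = 1.73e-17, edgeR 2.48 with adjusted p = 2.93e-19). It ranked 11 of the 14033 genes from the top. Called rises of the ratio were found for 0.791% of all genes, and rises at the adjusted p of any size for 5.02%. In wild-type cells 12.5% of the genes tested had a ratio as low as that of Mirg or lower, and in Dgcr8 KO cells 61% did.

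Rian is the longest of the 3 noncoding RNAs on the genome and the host of the snoRNA cluster. Its total RNA was at 263, 260 and 265 CPM in wild-type and at 462, 407 and 445 CPM in Dgcr8 KO libraries, with no overlap. The log2 change was 0.74 (SE 0.0542, limma adjusted p = 2.17e-13). Its nascent RNA was at 237, 209 and 215 CPM in wild-type and at 288, 278 and 313 CPM in Dgcr8 KO, a log2 change of 0.41 (SE 0.0614, adjusted p = 1.21e-06).

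The same ratio for Rian had a log2 value of 0.15, 0.32 and 0.30 in wild-type and 0.68, 0.55 and 0.51 in Dgcr8 KO. The groups did not overlap, and the change was 0.33 (SE 0.0818, limma adjusted p = 0.00475). The change lost the adjusted p when replicate 1 of the wild-type (0.27, adjusted p = 0.0600) or of the Dgcr8 KO cells (0.27, adjusted p = 0.0545) was left out.

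Meg3, a noncoding RNA best known as a growth-restraining transcript that is silenced in many tumours, lies at the start of the maternal transcripts. Its total RNA was at 60.4, 67.8 and 67.2 CPM in wild-type and at 127, 115 and 131 CPM in Dgcr8 KO, and the log2 change was 0.93 (SE 0.0661, limma adjusted p = 1.03e-13). Its nascent RNA was at 61.8, 60.7 and 64.4 CPM in wild-type and at 123, 114 and 120 CPM in Dgcr8 KO, with the same log2 change of 0.93 (SE 0.0744, adjusted p = 3.07e-12). Total and nascent RNA thus moved together. The log2 ratio of total to 4sU signal was -0.03, 0.16 and 0.06 in wild-type and 0.05, 0.01 and 0.12 in Dgcr8 KO, groups that overlapped. Its change was -0.01 (95% interval -0.21 to 0.20, adjusted p = 0.976).

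**Figure D2:**
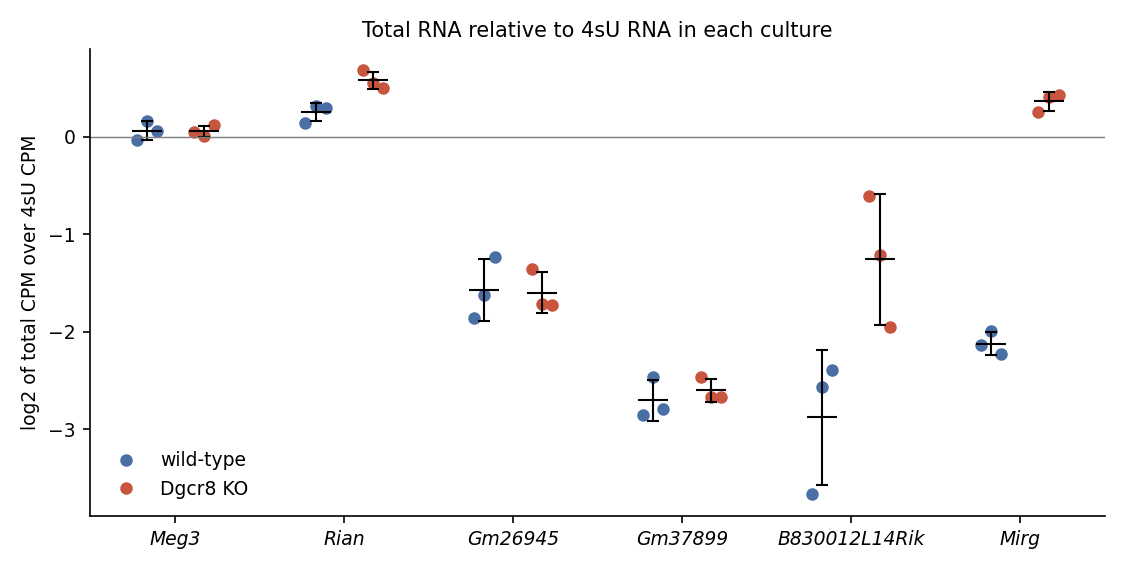
Log2 ratio of total CPM to 4sU CPM for the long noncoding rows of the locus, from the 4sU and total libraries of the same genotype and replicate number. Points are replicates and bars give the mean and SD over 3. Meg3 overlaps between genotypes, Rian is a little higher in Dgcr8 KO, and Mirg moves from -2.12 to 0.36.

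**Figure D3:**
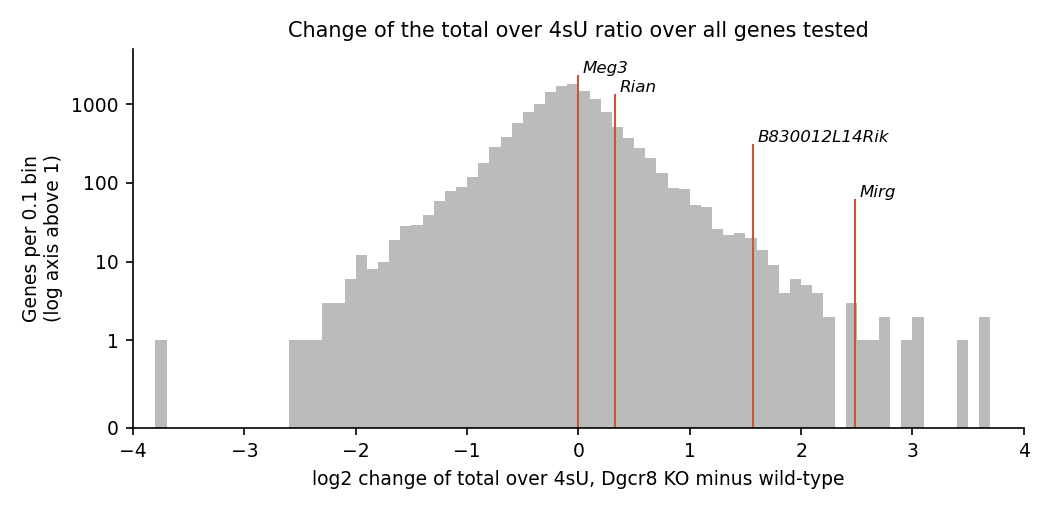
Number of genes, among 14033 tested, by the change of the log2 ratio of total to 4sU signal in Dgcr8 KO (bins of 0.1, log axis above 1). Lines mark Meg3 at -0.01, Rian at 0.33, B830012L14Rik at 1.57 and Mirg at 2.48.

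Since these RNAs are read in the same direction, their levels were also compared within each library. Counts were divided by exon length before each ratio was taken. The log2 ratio of Rian to Meg3 in the 4sU libraries was 2.07, 1.91 and 1.87 in wild-type and 1.36, 1.41 and 1.51 in Dgcr8 KO. The ratio of Mirg to Rian there was 0.29, 0.49 and 0.48 in wild-type and -0.31, -0.42 and -0.65 in Dgcr8 KO. In nascent RNA each of them was thus lower relative to the one before it on the chromosome. In the total libraries the mean ratio of Rian to Meg3 went from 2.14 to 1.94, and that of Mirg to Rian from -1.96 to -0.68. None of the 4 comparisons overlapped between genotypes, and each reached p = 0.1 in a two-sided exact permutation test, the smallest p that 3 against 3 allows (adjusted p = 0.1 over the 4).

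Per length of exon, in RPKM (CPM divided by the exon length in kilobases), the order of the members depended on the genotype and the library type. In wild-type 4sU libraries Mirg led with a mean of 20.5 RPKM, ahead of Rian at 15.3 and Meg3 at 3.97. In Dgcr8 KO 4sU libraries Rian was first at 20.4, followed by Mirg at 14.8 and Meg3 at 7.60. In total RNA Rian was first in both genotypes, at 18.3 in wild-type and 30.5 in Dgcr8 KO. Mirg followed at 4.72 and 19.04 RPKM and Meg3 at 4.15 and 7.93 RPKM. These neighbours did not overlap in any group, the closest pair being Mirg and Meg3 in wild-type total RNA. Mirg stood above 37.4% of the genes tested in wild-type total RNA and above 69.2% in Dgcr8 KO total RNA, Rian above 67.9% and 80.5%, and Meg3 above 35.2% and 47.5%. The median gene tested was at 8.55 to 9.10 RPKM, depending on the group. Dlk1 and Rtl1 had group means of 0.0133 to 0.139 and 0.0143 to 0.121 RPKM. They overlapped each other in both groups of 4sU libraries, while Dlk1 was the higher in wild-type and Rtl1 in Dgcr8 KO total RNA.

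Dlk1 encodes a membrane protein with EGF-like repeats that is described as a noncanonical ligand of Notch receptors. Its counts in total RNA were 3, 4 and 9 in wild-type and 1, 1 and 0 in Dgcr8 KO libraries, and in 4sU RNA 2, 2 and 5 against 0, 0 and 1. Pooled over libraries and scaled, Dgcr8 KO stood at 0.124 times the wild-type level in total RNA (95% exact interval 0.0138 to 0.525) and at 0.119 times in 4sU RNA (0.00272 to 0.86). These intervals cover counting error only. In a fit without the filter on low counts the log2 change in total RNA was -2.40 (limma adjusted p = 0.00273, edgeR -2.74 with adjusted p = 0.0145), on at most 9 reads in a library. In nascent RNA limma gave -2.07 (adjusted p = 0.0112) and edgeR -2.72 (adjusted p = 0.0873).

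Rtl1, a gene derived from a retrotransposon and needed in the placenta, had 1, 0 and 1 counts in wild-type and 2, 2 and 6 in Dgcr8 KO total libraries. In 4sU libraries it had 2, 2 and 5 against 3, 1 and 8. The total libraries did not overlap between genotypes, whereas the 4sU libraries did. The pooled ratio of Dgcr8 KO to wild-type was 4.94 in total RNA (95% exact interval 1.05 to 46.4) from 10 against 2 reads, and 1.43 in 4sU RNA (0.553 to 3.84). Without the filter the change in total RNA did not pass the test (limma log2 1.65, adjusted p = 0.0802, and edgeR 2.12, adjusted p = 0.105). With at most 8 reads in a library, neither tool called a change of Rtl1.

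The other long noncoding rows of the plus strand that passed the filter lay between the start of Rian and that of Mirg. Gm26945, between exons of Rian, had a log2 change of 0.02 in nascent RNA and -0.02 in total RNA, and Gm37899, between Rian and Mirg, of -0.03 and 0.08. None of these 4 values passed the test. B830012L14Rik, nearer to Mirg, was at 1.41, 2.44 and 2.44 CPM in wild-type and 5.64, 5.45 and 4.04 CPM in Dgcr8 KO total libraries, with no overlap. It rose by 1.25 in total RNA (SE 0.317, limma adjusted p = 0.000958), with -0.32 in nascent RNA (adjusted p = 0.132). Its ratio of total to 4sU signal rose by 1.57 (SE 0.365, adjusted p = 0.00259). Among these long rows the change in nascent RNA was highest at Meg3 (0.93) and lowest at Mirg (-0.47). It was 0.41 at Rian and about 0 at Gm26945 and Gm37899. Gm26945 lies within the span of Rian, so that 2 rows of the same stretch had unlike changes. The change in total RNA was near 0 at Gm26945 and Gm37899 and highest at Mirg. These differences between rows were not tested, other than in the ratios within libraries given above.

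**Figure D4:**
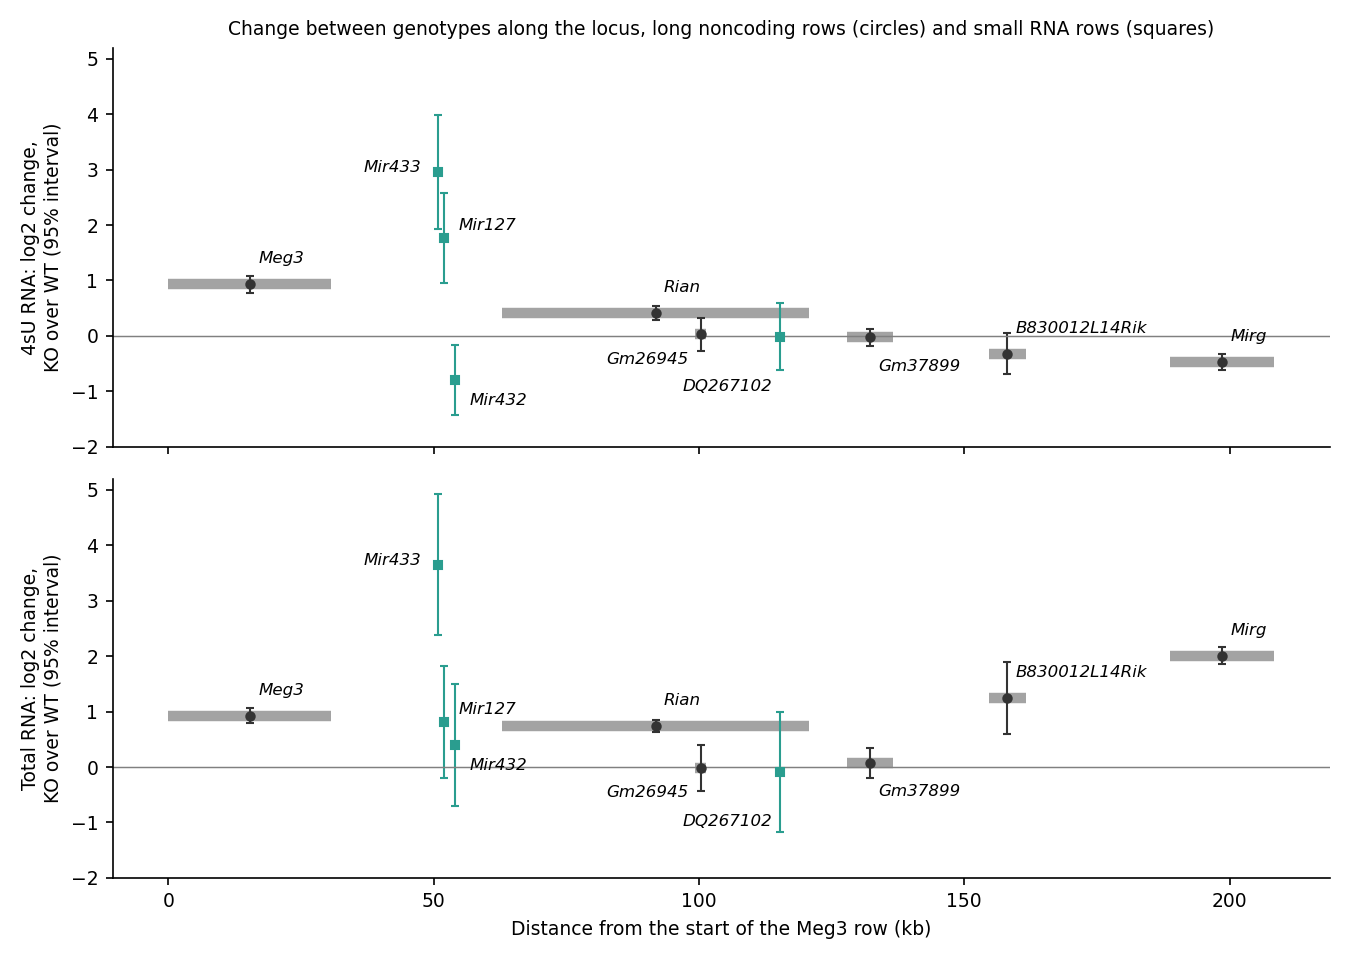
Log2 change between genotypes of the long noncoding and small RNA rows past the filter, in 4sU RNA (top) and total RNA (bottom), by distance from the start of Meg3 in kb. Grey bars span each long row and error bars are 95% intervals of limma. Among the long rows the change in nascent RNA is highest at Meg3 (0.93) and lowest at Mirg (-0.47), and that in total RNA is highest at Mirg (2.01). Gm26945 lies within the span of Rian. In nascent RNA the small rows Mir433 (2.96), Mir127 (1.76) and Mir432 (-0.80) lie outside the range of the long rows. Mir433 and Mir127 passed the filter only through Dgcr8 KO libraries and Mir432 only with wild-type ones, where each was higher in 4sU RNA.

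At the protein-coding end of the locus, Dio3, which encodes a deiodinase that inactivates thyroid hormone, was at 15.7 ± 1.29 CPM (SD, n = 3) in wild-type and 14.5 ± 1.19 CPM in Dgcr8 KO total RNA. Its log2 change was -0.13 in total and 0.03 in nascent RNA, and neither it nor its antisense neighbour Dio3os passed the test. Of the 24 genes tested within 1000000 bases on either side of the locus, 0 were called higher and 1 lower in total RNA (Ccdc85c, -1.38), beside 9.33% and 7.82% of all genes, and their median change was -0.01.

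The hairpins themselves were covered by few reads each. At the 6 hairpins opposite Rtl1 the reads summed to 53, 47 and 57 in wild-type and 96, 102 and 104 in Dgcr8 KO 4sU libraries. In total RNA they summed to 8, 17 and 13 in wild-type and 65, 62 and 44 in Dgcr8 KO. Scaled to library size, this was 2.05 times the wild-type level in nascent RNA and 4.5 times in total RNA. The sense gene Rtl1 had at most 8 reads in any library. Its pooled ratio was 1.43 in 4sU RNA (95% exact interval 0.553 to 3.84) and 4.94 in total RNA (1.05 to 46.4).

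The 26 hairpin rows between Rian and Mirg went the opposite way in nascent RNA, as Mirg did. They summed to 121, 84 and 121 reads in wild-type and 47, 52 and 48 in Dgcr8 KO 4sU libraries, 0.486 times the wild-type level, and in total RNA to 11, 15 and 14 against 68, 60 and 57, 4.58 times. The 10 counted hairpin rows inside Mirg summed to 74, 62 and 49 against 49, 24 and 38 in 4sU RNA, groups that overlapped. In total RNA they summed to 5, 8 and 9 against 42, 34 and 50, 5.84 times the wild-type level. The 7 hairpin rows between Meg3 and Rtl1 rose from 14 to 46 reads over the total libraries. Mir3070b alone held 5 of the wild-type and 40 of the Dgcr8 KO reads, and of the 7 rows 3 were higher and 3 lower. The 4 rows inside Rian had 10 and 12 reads.

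The snoRNA rows of the locus did not separate the genotypes. The 15 snoRNA rows with counts summed to 158, 133 and 129 reads in wild-type and 92, 129 and 129 in Dgcr8 KO 4sU libraries, 0.887 times the wild-type level. In total RNA they summed to 21, 23 and 38 against 35, 19 and 22, 0.914 times. The genotypes overlapped in both library types. These sums are given as descriptions.

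**Figure D5:**
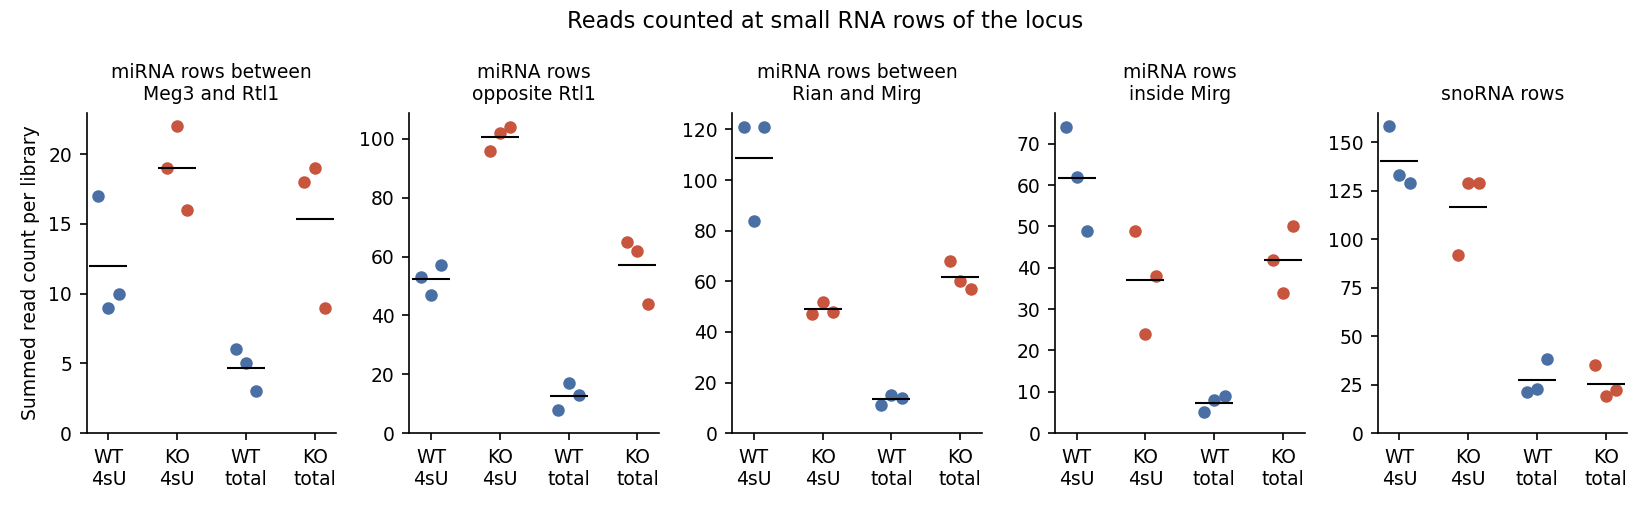
Reads counted at 4 groups of miRNA hairpin rows and at the snoRNA rows, summed per library and not scaled to depth. Points are libraries and lines are means over 3. In total RNA all 4 hairpin groups are higher in every Dgcr8 KO library (for example 44 to 65 against 8 to 17 opposite Rtl1), while the snoRNA rows overlap (19 to 35 against 21 to 38). Between Meg3 and Rtl1 the rise lies mainly in Mir3070b (40 reads in Dgcr8 KO against 5 in wild-type total RNA).

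Single rows were compared where reads allowed it. Of the 26 miRNA rows with at least 30 reads over the 12 libraries, 19 were higher in every Dgcr8 KO total library than in any wild-type one, 0 were lower and 7 overlapped, where 29.2% of all genes tested were higher with no overlap. In 4sU RNA 5 were higher, 5 lower and 16 overlapped, where 29.6% of all genes tested were higher and 29.4% lower with no overlap, so that neither share of the 26 exceeded that of all genes. Of the 12 snoRNA rows with as many reads, 0 were higher or lower in total RNA and 1 was lower in 4sU RNA. A row could reach 30 reads through the group where it was high, and the counts are a description. The 5 miRNA rows higher in 4sU RNA were Mir431, Mir433, Mir127 and Mir136 opposite Rtl1, and Mir3070b just before it. The 5 lower were Mir432 opposite Rtl1, Mir679, Mir376c and Mir494 between Rian and Mirg, and Mir453 inside Mirg, with pooled ratios of 0.583, 0.179, 0.233, 0.375 and 0.268.

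Mir431 had 2, 0 and 1 reads in wild-type and 14, 16 and 21 in Dgcr8 KO 4sU libraries, and 1, 2 and 1 against 23, 23 and 10 in total libraries. The pooled ratio was 13.8 in total RNA (95% exact interval 5.11 to 52.5). Mir433 had 1, 5 and 5 against 25, 25 and 23 reads in 4sU RNA, a pooled ratio of 7.12 (3.75 to 14.9). In total RNA it had 0, 2 and 0 against 12, 8 and 12, a pooled ratio of 15.8 (4.03 to 136).

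Mir433 and Mir127 were called higher in nascent RNA, as were 9.5% of all genes tested. Both passed the filter on low counts only through the 3 Dgcr8 KO 4sU libraries, where they were high, and neither passed it without any 1 of those libraries. The log2 changes were 2.96 (limma adjusted p = 8.25e-06, edgeR 2.79) for Mir433 and 1.76 (adjusted p = 0.000359, edgeR 1.82) for Mir127. Without wild-type replicate 1 the change of Mir433 was 2.18. Mir433 was also called higher in total RNA (log2 3.65, adjusted p = 5.75e-06), where the value was 4.37 without wild-type replicate 2 and 2.16 with limma-trend, and Mir127 was not (log2 0.82, adjusted p = 0.15). Mir432, their neighbour, went the other way in nascent RNA. It had 33, 24 and 24 reads in wild-type and 16, 18 and 10 in Dgcr8 KO 4sU libraries, a log2 change of -0.80 (adjusted p = 0.0293), and it passed the filter only with wild-type 4sU libraries, where it was higher. In total RNA it had 3, 6 and 4 against 10, 8 and 2 reads, which overlapped.

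Among the hairpins near Mirg, several had no read in any wild-type total library. Mir376c had 0, 0 and 0 reads in wild-type and 8, 6 and 3 in Dgcr8 KO, at least 5.6-fold higher against a floor of 3 reads over the group. Mir376a was at least 7.25-fold and Mir300 at least 6.59-fold higher in the same way. Mir382, inside Mirg, had 1 read in all wild-type and 20 in all Dgcr8 KO total libraries, a ratio of 19.8 (95% exact interval 3.16 to 819). In 4sU RNA Mir376c had 7, 8 and 8 reads in wild-type and 1, 1 and 3 in Dgcr8 KO, so that it was lower among nascent and higher among steady-state reads.

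Other noncoding transcripts that carry miRNA hairpins were set beside the locus. Of 15 such hosts listed, 13 were in the table and 8 were tested. The tested rows Mir290a and Mir302a bear symbols of hairpins and not of host transcripts. Mir302a passed the filter only through Dgcr8 KO libraries and was not called in total RNA (log2 0.76, limma adjusted p = 0.34). In total RNA 3 of the 8 tested rows were called higher and 2 lower, where 9.33% and 7.82% of all genes were. Mir17hg, host of the miR-17 to miR-92 cluster, rose by 1.66 on the log2 scale in total RNA (limma adjusted p = 9.48e-15) with a log2 change of -0.32 in nascent RNA (adjusted p = 0.00141), and its ratio of total to 4sU signal rose by 1.97 (adjusted p = 2.93e-12). The row of Mir290a, of the main ESC miRNA cluster, rose by 2.73 in total RNA and by 1.25 in nascent RNA, and its ratio by 1.48 (adjusted p = 4.05e-06). Mir22hg rose by 1.38 in total RNA, with -0.11 in nascent RNA (adjusted p = 0.595), and its ratio by 1.48 (adjusted p = 0.00150).

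The 2 hosts called lower in total RNA were H19, the noncoding RNA of another imprinted locus, by a log2 change of -2.81, and Mir9-3hg, by -1.75. Both passed the filter only through wild-type libraries, where they were high. Both were also called lower in nascent RNA, as were 5.27% of all genes, and the change of the ratio passed the test in neither (adjusted p = 0.421 and 0.568). The rise of the ratio of total to 4sU signal by 2.48 in Mirg was thus larger than in each of the 8 listed rows tested. The difference between Mirg and these rows was not itself tested.

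Factors known to maintain imprints or to act at this locus were all 21 tested. In total RNA 0 were called higher and 3 lower, where 9.33% and 7.82% of all genes were, and their median change was -0.05. The 3 were Dppa3, which protects maternal imprints and is known to guard this locus against silencing, from 12.97 to 0.376 CPM (log2 -5.03, limma adjusted p = 3.92e-11, past the filter only through wild-type libraries), Uhrf1, which brings DNMT1 to replicating DNA (-1.15, adjusted p = 2.93e-17), and Hells, a chromatin remodeller of methylated DNA (-1.01, adjusted p = 1.72e-17). Dnmt3b, a de novo DNA methyltransferase, was at 115 and 61.6 CPM (-0.90, adjusted p = 6.70e-14), under the fold limit. Dnmt3a, another de novo methyltransferase, went the other way, from 72.27 to 96.55 CPM (0.42, adjusted p = 5.67e-07). At the adjusted p, with changes of any size, 7 of the 21 rose and 10 fell in total RNA, where 27.2% and 36.7% of all genes did. Zfp57 and Dnmt3l had changes of -0.05 and 0.04 and did not pass the test.

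Of 32 Notch pathway genes, listed because of Dlk1, 23 were tested. In total RNA 4 were called higher and 1 lower, beside 9.33% and 7.82% of all genes. The receptor Notch3 fell by 2.06 on the log2 scale, the receptor Notch4 rose by 1.04 and the ligand Jag1 by 1.04. Dner, a further ligand-like membrane protein, rose by 2.42, having passed the filter only through Dgcr8 KO libraries, where it was high. The coactivator Maml2 rose by 1.44. Of 11 genes related to Rtl1 by their Gag-like origin, 3 were tested and 0 were called. Peg10, the imprinted relative that is best known, was at 22.0 and 23.7 CPM in total RNA (log2 0.08, adjusted p = 0.594).

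The genes whose levels over the 12 libraries were most like those of each member were found by Pearson's r of log2 CPM, which mostly reflects library type and genotype and is given as a description. For Mirg they were Tor1b (r = 0.969), Gpkow (0.968) and Zbtb37 (0.958). Their log2 changes were 0.78, 1.05 and 1.31 in total RNA and -0.12, -0.41 and 0.04 in nascent RNA, and those of the ratio were 0.90, 1.46 and 1.27. For Meg3 they were Rab11fip1 (0.992), Fras1 (0.990) and Ido2 (0.989), and for Rian Fndc3a (0.989), Rev3l (0.989) and Rrm2b (0.986).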

How the data were processed

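Sequencing libraries of nascent and steady-state RNA were measured in 12 samples of mouse ESCs, with groups taken from the titles of the samples. The file deposited by the authors holds raw read counts for each gene in whole numbers. To make it, they used cutadapt 1.14 for adapters, STAR 2.5.3a for unique alignment to mm10, and featureCounts 1.5.3 with the GENCODE M14 annotation in its reverse-stranded setting (2), so that Rtl1 and the miRNAs on the opposite strand were counted apart. Near-identical hairpins lose reads to unique mapping. Reads were counted without molecular identifiers, and intervals cover counting error only. Of the 51559 identifiers, 51274 matched a symbol in GENCODE M21 (same build). The 92 ERCC rows held 1 count, so no absolute scaling was possible.

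As in the study, a gene was kept where 3 libraries or more had 3 CPM or more, and limma was used with an interaction term. TMM factors and voom weights were chosen here. The factors came from edgeR 4.0.16, and limma 3.58.1 with voom weights (R 4.3.3) was fitted once to all 12 libraries, with genotype, library type and an interaction term, and Benjamini-Hochberg adjustment over all genes tested. edgeR's quasi-likelihood test is printed beside it. The fit was tested on simulated counts. The members, lists and tests were chosen with earlier results of these data known. Named are the members, the 3 most similar genes of each tested member and up to 4 called genes of each list. Of the locus rows with at least 10 counts (30 for small RNAs), only a part is named. Results of single rows such as Begain, Gm34081 and Mir541, which pass these limits, are not given. Other genes (Dnmt3a, Dnmt3b, Zfp57, Dnmt3l, Peg10, Jag1, Mir22hg, Mir302a and single cell type markers) were named after their values were seen. Alternatives were edgeR, DESeq2 1.42.0, limma-trend, other scalings and filters, replicate blocks and leaving out each replicate. Sequences are from RefSeq (GRCm38.p6).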

Additional observations from a re-analysis of the deposited data

Results flagged for a closer look

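In 3 rows of the locus and in Dgcr8, the change between genotypes differed between library types by the interaction term of limma. Mirg had the largest difference of these, with its change in total RNA 2.48 above that in 4sU RNA on the log2 scale (adjusted p = 1.73e-17). For B830012L14Rik the difference was 1.57 (adjusted p = 0.00259) and for Rian 0.33 (adjusted p = 0.00475). For Dgcr8, the gene targeted in the KO line, it was -1.09 (adjusted p = 3.11e-08). Each group held 3 libraries, too few to ask whether 1 library stood apart from its group.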

How the results depend on the processing

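Direction and call were kept by 233 of 249 alternative values over 17 results. Those of Mirg were kept under every alternative run, as were those of B830012L14Rik, which had no value with 3 CPM in all 12 libraries. Mirg stability ranged from 2.47 to 2.57 over the tools, scalings, filters and blocks. The other values are those of Meg3 stability and of the genes called. The change of Meg3 stability, -0.01, turned positive with DESeq2 (0.0835), RLE factors (0.0821), upper-quartile factors (0.0588), library size only (0.0185), no filter (0.00829) and 3 CPM in all 12 libraries (0.00423), and did not pass the test under any of them. The scaling also moved the median stability change of all genes, from -0.09 to -0.00257 with RLE factors. With no filter, 4001 genes were called in total and 3801 in nascent RNA. With 3 CPM in all 12 libraries, 1045, 837 and 115 genes were called in total RNA, nascent RNA and stability, and without a fold limit 8971, 7898 and 2261. The main counts were 2407, 2073 and 247.

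Leaving out each replicate gave ranges of 1.96 to 2.07, -0.52 to -0.40 and 2.42 to 2.54 for Mirg in total RNA, nascent RNA and stability. For Meg3 they were 0.87 to 0.98, 0.91 to 0.97 and -0.0494 to 0.0337. For Rian they were 0.70 to 0.79, 0.37 to 0.46 and 0.27 to 0.36, where stability lost the adjusted p without replicate 1 of either genotype. Genes called ranged from 2254 to 2313, 1876 to 1987 and 211 to 251. With replicate number as a block the changes of Mirg were 2.01, -0.47 and 2.48, and 2399, 2049 and 254 genes were called. Deviations of same-numbered samples from their groups had correlations of -0.0825 to 0.0777 between genotypes. The methods say that extracted RNA was divided between both library types, and same-numbered 4sU and total libraries of a genotype had correlations of 0.0161 to 0.105. These ranges overlap, so the correlations cannot tell whether same-numbered samples were paired across genotypes. A block that paired the same-numbered 4sU and total libraries of a genotype gave 2.48 for Mirg stability, and no block changed a call of a member. Dlk1 and Rtl1 had no value under the filters. Mir433 ranged from 2.18 to 3.33 in nascent and 3.17 to 4.37 in total RNA without each wild-type replicate, and was at 2.16 in total RNA with limma-trend. The Mir433 and Mir127 rows failed the filter without any 1 Dgcr8 KO replicate and were chosen for these alternatives, with B830012L14Rik, after seeing the data.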
